A study of Mus musculus with 12 samples.

Results

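Host genes of small nucleolar RNAs (snoRNAs) were followed in adipocytes of the 3T3-L1 line, mouse embryonic fibroblasts that store fat once differentiated in culture, after knockdown of Zfp407, which encodes a zinc finger protein. Of 10 listed host genes, 7 are noncoding (Gas5, Snhg1, Snhg3, Snhg5, Snhg6, Snhg8 and Snhg12) and 3 encode proteins (Ppan, Taf1d and Sec24a). A member was a table row whose gene name equals that of the host, and 3 of the 10 met this, Ppan, Taf1d and Sec24a, out of 39248 rows. Gas5 and Snhg12 stand only in rows that carry several names. No row names Snhg1, Snhg3, Snhg5, Snhg6 or Snhg8, and at their loci only rows with other names can be described. The 3 coding hosts were chosen by their higher FPKM in the knockdown libraries of this same comparison, so their values are a description without a test.

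The knockdown group held 6 libraries, 3 with each of 2 siRNAs against Zfp407, and the control group 6 libraries with a control siRNA. All cells were differentiated 3T3-L1 cells that received 0.75 nmol of siRNA by electroporation at day 2 after differentiation. The submitters describe the electroporations as independent of each other. The table does not mark which siRNA a knockdown library received, so the p-values treat the 3 and 3 libraries of the 2 siRNAs as replicates of 1 treatment. They cover 1 cell line, and no second line or tissue. Values are FPKM, the fragments of a row divided by its length in kilobases and by the size of the library.

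A snoRNA host gene carries snoRNAs in its introns. After splicing, the intron is opened and trimmed, and the snoRNA with its bound proteins is released to guide chemical changes on ribosomal and spliceosomal RNA. Box C/D snoRNAs guide methylation of the ribose and box H/ACA snoRNAs guide the conversion of uridine to pseudouridine. Some hosts are messenger RNAs of proteins of ribosome synthesis, while the Snhg genes and Gas5 yield a spliced RNA that encodes no long protein and, in mammals, is often short-lived because nonsense-mediated decay removes it. Libraries of this kind mainly record long RNA, and a snoRNA is shorter than most fragments they hold.

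GENCODE M21 (GRCm38) has 40 snoRNA entries inside the 10 hosts on the host's strand, 60 to 205 bases long, and all 40 lie in an intron of at least 1 transcript of the host. Snord80 in Gas5 and Snora16a in Snhg12 are each entered under 2 gene IDs at overlapping positions, so the 40 entries stand at 38 positions. By entries, Gas5 holds 10, Snhg1 and Taf1d hold 8 each, Snhg12 holds 5, Snhg3, Snhg5 and Ppan hold 2 each, and Snhg6, Snhg8 and Sec24a hold 1 each. Examples are shown because their rows or hosts carry the values below. Capitals mark box C (TGATGA) near the 5′ end with box D (CTGA) near the 3′ end, or ACA 3 bases before the 3′ end, searched on the snoRNA's own strand in the DNA letters of the GENCODE M21 transcripts.
Gm23008, in Ppan, chr9:20890757-20890836, plus strand: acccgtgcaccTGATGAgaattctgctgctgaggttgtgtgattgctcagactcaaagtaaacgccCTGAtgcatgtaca
Gm24299, in Taf1d, chr9:15314074-15314144, plus strand: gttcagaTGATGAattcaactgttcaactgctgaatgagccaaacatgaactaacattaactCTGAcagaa
Gm23455, in Taf1d, chr9:15316489-15316588, plus strand: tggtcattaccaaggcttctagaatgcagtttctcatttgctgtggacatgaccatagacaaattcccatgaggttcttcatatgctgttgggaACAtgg
Gm25291, in Sec24a, chr11:51737779-51737922, minus strand: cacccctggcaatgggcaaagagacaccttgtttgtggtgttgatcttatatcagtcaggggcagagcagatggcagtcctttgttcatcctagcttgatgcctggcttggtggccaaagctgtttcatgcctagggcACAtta
Snord87, in Snhg6, chr1:9942463-9942549, minus strand: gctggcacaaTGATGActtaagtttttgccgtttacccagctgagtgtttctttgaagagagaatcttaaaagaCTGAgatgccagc
Snora24, in Snhg8, chr3:123507937-123508066, minus strand: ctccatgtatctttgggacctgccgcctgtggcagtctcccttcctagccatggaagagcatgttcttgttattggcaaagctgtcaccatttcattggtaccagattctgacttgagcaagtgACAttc
Snora16a, in Snhg12, chr4:132309465-132309600, plus strand: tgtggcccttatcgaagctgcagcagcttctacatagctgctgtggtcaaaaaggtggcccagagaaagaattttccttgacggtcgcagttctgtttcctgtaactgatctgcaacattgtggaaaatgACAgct

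Of the 40 entries in these hosts, 20 held both box C and box D in those places, 11 held the terminal ACA and 9 held neither pattern. Among all 1558 snoRNA transcripts of the annotation 19.7% held box C and box D and 19.1% the terminal ACA. In Gas5, 8 of 10 entries held box C and box D, as did 2 of 2 in Snhg5, and neither host held a terminal ACA. Taf1d is mixed, with 2 of box C/D and 4 with the terminal ACA among its 8. Many of these snoRNAs have only a numbered gene name in GENCODE M21, while the table uses names such as SNORD26 or snoU105B, and rows were not paired with sequences where the names differ.

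The knockdown and the culture were checked first. Zfp407 averaged 1.79 ± 0.208 FPKM in knockdown libraries and 2.83 ± 0.178 FPKM in control libraries (SD, n = 6 each), 36.9% lower, with no overlap (log2 fold change −0.46; limma, adjusted p = 8e-05). All 10 adipocyte markers on the list were tested, of which 1 rose and 4 fell, where 11.6% of all 14706 rows tested were called higher and 24.8% lower. The list summed to 17602 to 22371 FPKM in knockdown and 19061 to 23019 FPKM in control libraries. Cebpa, a transcription factor of fat cells, rose, while Cfd, Adipoq, Slc2a4 and Cidec fell. In bulk libraries such as these, fewer differentiated cells and less RNA per cell cannot be told apart, and the part of these markers in the results below was not tested. Of 9 markers of immune, endothelial, muscle and epithelial cells, 8 had a row, and their summed level was 0.763 to 1.33 FPKM in knockdown and 0.822 to 1.04 FPKM in control libraries. Knockdown library 6 had the largest mitochondrial part of its summed FPKM, 32.8%, and results were also computed without it.

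Ppan encodes a nucleolar protein of large ribosomal subunit assembly, the relative of yeast Ssf1, and its row (chr9:20888175-20892178) spans the whole gene. Ppan had 65.0, 59.2, 63.4, 50.9, 54.6 and 58.4 FPKM in knockdown libraries 1 to 6, and 25.3, 20.8, 22.2, 20.1, 27.1 and 28.1 FPKM in control libraries 1 to 6. Every knockdown library lay above every control library, as in 4.24% of all protein-coding rows tested, and the same comparison chose the gene. The means were 58.6 ± 5.28 FPKM in knockdown and 23.9 ± 3.37 FPKM in control libraries (SD, n = 6 each), a ratio of 2.45. The log2 fold change was 1.26 (SE 0.09) on the log2(FPKM + 1) scale used for all fold changes here, and between 1.22 and 1.31 with any single library left out. In the authors' deposited table, Ppan is the only one of the 3 coding hosts marked significant, with a log2 fold change of 1.24 and a q-value of 0.00488. The authors' test used the same libraries by which Ppan was chosen, so it adds no separate support.

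Taf1d encodes a subunit of the selectivity factor that directs RNA polymerase I to ribosomal RNA genes. Taf1d had 39.8, 44.0, 46.4, 34.4, 54.2 and 36.8 FPKM in knockdown libraries 1 to 6, and 43.3, 32.3, 20.6, 11.1, 11.8 and 14.4 FPKM in control libraries 1 to 6. All 6 knockdown libraries were above the control mean, but control library 1 lay among the knockdown libraries and control library 2 just below them. The means were 42.6 ± 7.23 FPKM in knockdown and 22.3 ± 13.0 FPKM in control libraries (SD, n = 6 each), with a log2 fold change of 1.07 (SE 0.30). Without control library 1 it was 1.29, and without control library 4 it was 0.91. The authors' deposited table gives Taf1d a log2 fold change of 0.97 with an unadjusted p-value of 0.872. The locus of this row (chr9:15283337-15357788) is wider than the gene and holds 12 rows, 8 of them with a snoRNA name. It also holds rows of other genes, so a snoRNA-named row there need not lie within Taf1d.

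Sec24a encodes a cargo-binding subunit of COPII, the coat of vesicles that leave the endoplasmic reticulum. Sec24a had 28.6, 46.0, 23.2, 20.6, 40.2 and 19.1 FPKM in knockdown libraries 1 to 6, and 15.3, 20.2, 12.2, 18.5, 15.8 and 12.9 FPKM in control libraries 1 to 6. Knockdown libraries 2 and 5 stood highest, and 5 of the 6 knockdown libraries lay above the highest control library. The means were 29.6 ± 11.1 FPKM in knockdown and 15.8 ± 3.10 FPKM in control libraries (SD, n = 6 each), with a log2 fold change of 0.81 (SE 0.21). It ranged from 0.67 without knockdown library 2 to 0.92 without knockdown library 6. In the authors' deposited table the test of this row has the status FAIL, and its values are 29.8 FPKM for the knockdown and 15.8 FPKM for the control group. The row (chr11:51692192-51763634) is the only one at its locus, so its intronic snoRNA Gm25291, shown above, has no row there under another name.

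**Figure D1:**
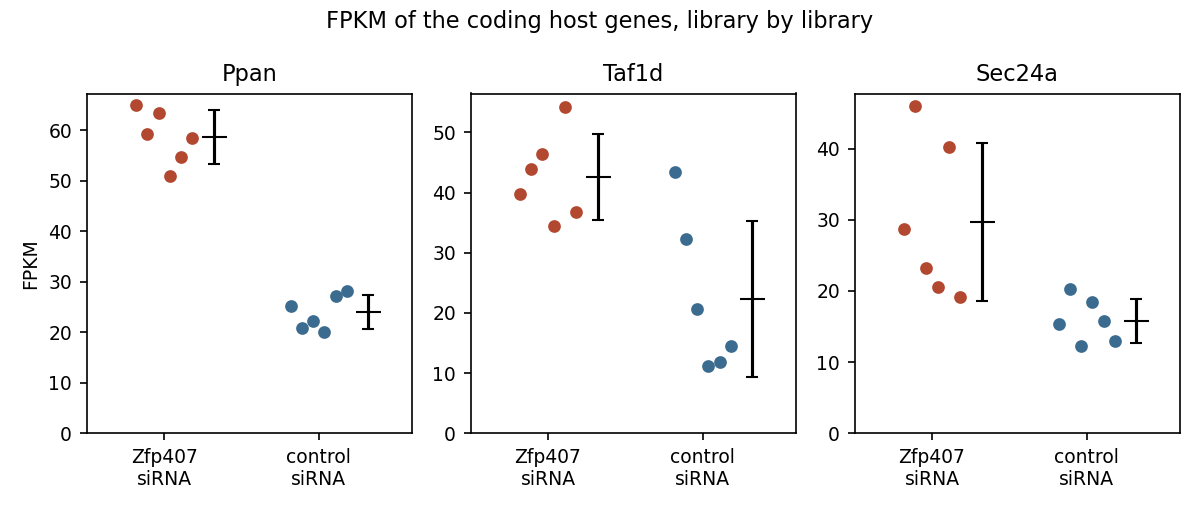
FPKM of Ppan, Taf1d and Sec24a in each of the 6 knockdown libraries (left in each panel) and the 6 control libraries (right), with the mean and SD beside the points. The groups do not overlap for Ppan, while for Taf1d control library 1 reaches 43.3 FPKM and for Sec24a knockdown library 6 is at 19.1 FPKM, below control library 2.

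Within the knockdown group, Ppan and Taf1d were both lowest in knockdown library 4, where Sec24a was the second lowest. Taf1d and Sec24a were both high in knockdown library 5, in which Ppan was the second lowest, and Sec24a was highest in knockdown library 2, in which Ppan was near its mean. Taf1d ran from 43.3 to 11.1 FPKM over the control libraries, in which Ppan stayed between 20.1 and 28.1 FPKM. Relative to 4611 protein-coding rows with a control mean of 10 to 60 FPKM, whose median coefficient of variation was 8.45% in knockdown and 6.33% in control libraries, all 3 were variable in the control group. The coefficient of variation in knockdown and in control libraries was 9.01% and 14.1% for Ppan, 17.0% and 58.3% for Taf1d, and 37.5% and 19.6% for Sec24a. In the control group 99.8% of those rows varied less than Taf1d, 97.2% less than Sec24a and 91.8% less than Ppan.

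Among 9558 protein-coding rows tested, the log2 fold changes that led to the choice of these genes ranked 8 for Ppan, 19 for Taf1d and 33 for Sec24a. The rows just above and below were Cd200 (1.28) and Brpf1 (1.21) around Ppan, and Cxcl10 (1.08) and Tti2 (1.03) around Taf1d, while Lrrc51 (0.80) stood just below Sec24a. The single-gene rows with the highest Pearson correlation of log2(FPKM + 1) over the 12 libraries were Slc7a6os, Trib1 and Cep350 for Ppan, at r = 0.982, 0.979 and 0.978. They were Pygm, Hmgxb4 and Ddx19a for Taf1d, at r = 0.872, 0.871 and 0.870, and Zfp341, Asb1 and Etv3 for Sec24a, at r = 0.885, 0.883 and 0.881. The libraries fall into 2 groups, so these values contain the difference between the groups and describe these libraries only.

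Genes that work with the 3 coding hosts had small fold changes. For Ppan, the list held 12 other factors of large-subunit assembly, of which 9 had a row and were tested. Brix1 (0.20), Mak16 (0.17) and Rpf1 (0.13) rose, on the log2 fold change scale, and Bop1 (−0.21) fell, with limma adjusted p-values of 0.0118, 0.00589, 0.0176 and 0.00899. The other 5 were not called, and the median log2 fold change of the 9 was 0.04, beside −0.05 over all 14706 rows tested. For Taf1d, the list held 11 other factors of RNA polymerase I transcription, of which 9 were tested. Taf1c (0.32) and Tbp (0.29), both partners of Taf1d in the same factor, rose with limma adjusted p-values of 0.0336 and 0.0163. The polymerase subunit Polr1d (−0.23, limma adjusted p = 0.0003) fell. Taf1b, a further partner in that factor, was among the 6 not called (−0.02, limma adjusted p = 0.799), and the median of the 9 was 0.07. For Sec24a, 9 of 10 other COPII genes were tested, and Sec13 (0.13, limma adjusted p = 0.0488) rose while Sec31a (−0.14, 0.0477) fell. The other 7 COPII genes were not called, and the median of the 9 was −0.03. None of these changes passed the test against a minimum fold of 1.2. Over all rows tested, 11.6% were called higher and 24.8% lower.

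The row that carries Gas5 (chr1:161007757-161038561) also carries 9 snoRNA names, so its value joins them with the host and cannot be assigned to the host RNA. It had 718, 465, 1099.8, 534, 528 and 1369 FPKM in knockdown libraries 1 to 6, and 956, 479.8, 1068, 437, 400.4 and 604 FPKM in control libraries 1 to 6. The groups overlapped widely, with knockdown libraries 3 and 6 and control libraries 1 and 3 high. The means were 786 ± 368 FPKM in knockdown and 657 ± 285 FPKM in control libraries (SD, n = 6 each). The fold change on the log2 scale was 0.24 (SE 0.33; limma adjusted p = 0.592), so no difference was detected at this spread. Without single libraries it lay between 0.06 and 0.40.

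The row that carries Snhg12 (chr4:132308678-132311024) also carries Snora44, Snora61 and Snord99. It had 109, 250.1, 95.5, 62.3, 94.3 and 133 FPKM in knockdown libraries 1 to 6, and 60.3, 71.0, 403, 52.6, 61.3 and 55.9 FPKM in control libraries 1 to 6. Control library 3 stood above every other library of both groups, and 5 of the 6 knockdown libraries lay above the other 5 control libraries. The fold change on the log2 scale was 0.44 (SE 0.48; limma adjusted p = 0.505). Without control library 3 it was 0.90 with an adjusted p of 0.0279, and over all the alternatives the adjusted p ran from 0.0279 to 1. This library thus decides whether the row that carries Snhg12 is called. The authors' deposited table gives this row 61.8 FPKM for the control group, close to the libraries other than control library 3, where the 6 control libraries average 117 FPKM.

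At the loci of the noncoding hosts there were 13 rows with a single snoRNA name, and all 13 were tested. Of these, 7 rose and 0 fell with limma at an adjusted p below 0.05, and the mean was higher in knockdown libraries in 12. Across all 14706 rows tested, 36.4% were called, 11.6% higher and 24.8% lower. Rows with a snoRNA name anywhere in the table differed from that background in the same way, since 44.9% of 214 were called higher and 2.34% lower. The share at these hosts is close to that of snoRNA-named rows in general, and nothing here is particular to the noncoding hosts. Against a minimum fold of 1.2, 2 of the 7 were called, SNORD31 and the Snora24 row XLOC_022177.

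At Snhg8, which holds 1 snoRNA entry, both rows named Snora24 rose. No row names Snhg8, and whether a row named Snora24 holds the snoRNA or the host RNA was not shown. The Snora24 row XLOC_022176 had 79.4, 78.2, 84.2, 79.7, 79.5 and 83.1 FPKM in knockdown libraries 1 to 6, and 62.3, 59.8, 73.7, 60.4, 61.7 and 71.9 FPKM in control libraries 1 to 6. The groups did not overlap, and the SD within groups was 0.0973 on the log2 scale, the lowest among snoRNA-named rows at these loci (log2 fold change 0.31, SE 0.06, limma adjusted p = 0.00103). The other Snora24 row, XLOC_022177, averaged 54.4 ± 5.63 FPKM in knockdown and 26.1 ± 13.3 FPKM in control libraries (SD, n = 6 each), with a log2 fold change of 1.14 (limma adjusted p = 0.00239). Control library 1 reached 51.7 FPKM there, while the other control libraries lay between 15.3 and 26.5 FPKM. Snora24 is a box H/ACA snoRNA, with the terminal ACA marked above, and the locus of its rows (chr3:123507549-123508364) covers most of Snhg8.

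At Snhg6 (chr1:9908638-9944159), which also holds 1 snoRNA entry, 1 of the 2 rows named Snord87 rose. Whether each of them holds the snoRNA or the host RNA was likewise not shown. The Snord87 row XLOC_000968 had 89.3, 117.9, 55.1, 100.9, 91.9 and 29.5 FPKM in knockdown libraries 1 to 6, and 31.8, 0, 0, 33.0, 0 and 32.5 FPKM in control libraries 1 to 6. It is listed at 0 in 3 control libraries and in no knockdown library (log2 fold change 3.69, SE 1.07, limma adjusted p = 0.017). The means of this row were 80.8 FPKM in knockdown and 16.2 FPKM in control libraries, a ratio of 4.98. The authors' deposited table gives it a log2 fold change of 2.37, and the values at 0 enlarge the 3.69. The Snord87 row XLOC_000967 averaged 35.5 ± 4.45 FPKM in knockdown and 32.2 ± 2.92 FPKM in control libraries (SD, n = 6 each) and was not called (log2 fold change 0.13, limma adjusted p = 0.227). Whether the 2 changes differ from each other was not tested.

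At Snhg12, Snora16a had 24.2, 11.98, 11.2, 22.8, 29.1 and 36.0 FPKM in knockdown libraries 1 to 6, and 12.9, 4.89, 0, 8.95, 8.47 and 8.82 FPKM in control libraries 1 to 6. Only control library 1 reached into the knockdown range (log2 fold change 1.74, SE 0.57, limma adjusted p = 0.0302). Its call was lost with a pseudocount of 0.1, with no filter, and without any 1 of control library 2 and knockdown libraries 1, 5 and 6, with limma adjusted p-values from 0.0523 to 0.0897. Against a minimum fold of 1.2 the adjusted p was 0.161. Snora16a is listed at 0 in control library 3, the library in which the row that carries Snhg12 at the same locus stood at 403 FPKM. The log2 value of Snora16a minus that of the row that carries Snhg12 was −2.39 ± 1.07 in knockdown and −3.68 ± 2.49 in control libraries (SD, n = 6 each). The difference of 1.30 did not pass the exact permutation test over 924 divisions of the libraries (two-sided p = 0.288, smallest possible 0.00216), and it was 0.30 without control library 3. This was the only locus where a snoRNA row could be set against a row that carries a noncoding host.

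No row names Snhg3, and whether the row named Snora73b at its locus holds the snoRNA or the host RNA was not shown. At Snhg3 (chr4:132331919-132353694), Snora73b averaged 29.3 ± 5.58 FPKM in knockdown and 18.6 ± 5.25 FPKM in control libraries (SD, n = 6 each; log2 fold change 0.65, SE 0.19, limma adjusted p = 0.0156). All but 1 of the 6 knockdown libraries lay above the highest control library, and that 1 was just under it. The locus also holds rows of other genes. Gm17300 rose (log2 fold change 0.31, limma adjusted p = 0.0141), and Rcc1 was not called (0.43, limma adjusted p = 0.065). At Snhg5 no snoRNA-named row was found. Its locus (chr9:88521035-88598949) holds 8 rows, none with the name of Snhg5 or of a snoRNA. The row with the names CT025673.2, CT025673.3 and U4 averaged 148 ± 111 FPKM in knockdown and 57.2 ± 28.3 FPKM in control libraries. It was not called (SD, n = 6 each; log2 fold change 1.11, limma adjusted p = 0.108), and neither was AC163666.1 (limma adjusted p = 0.288). Zfp949 fell (log2 fold change −0.34, limma adjusted p = 0.0405). Whether a row there holds the host RNA was not shown.

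The Snhg1 locus (chr19:8706882-8726471) holds 7 of the 13 single-named snoRNA rows, from SNORD26 to SNORD31 and Snord22. A further row carries both names SNORD25 and Snord22. The locus is wider than Snhg1 and also holds Slc3a2, at 62.9 ± 4.59 FPKM in knockdown and 55.4 ± 3.19 FPKM in control libraries. That row rose without overlap (SD, n = 6 each; log2 fold change 0.18, limma adjusted p = 0.0198). No row names Snhg1, and whether these snoRNA-named rows hold the snoRNAs or the host RNA was not shown. SNORD29 rose, with 1155, 1144, 713, 1088, 793 and 763 FPKM in knockdown libraries 1 to 6, and 823, 233, 467, 427, 404 and 631 FPKM in control libraries 1 to 6. Its groups overlapped only through control library 1 (log2 fold change 1.00, SE 0.26, limma adjusted p = 0.0102). SNORD26 had 759, 341, 767, 701, 639 and 957 FPKM in knockdown libraries 1 to 6, and 221, 334, 167, 76.5, 0 and 226 FPKM in control libraries 1 to 6. The groups of SNORD26 did not overlap, yet the row missed the threshold with control library 5 listed at 0 (log2 fold change 3.10, SE 1.19, limma adjusted p = 0.0594). Without control library 5 its log2 fold change was 1.84 with an adjusted p of 0.0025, and it also passed at 0.0454 without control library 2. In control library 5, where SNORD26 is listed at 0, the row with both names SNORD25 and Snord22 stood at 559.6 FPKM. In that row the other control libraries lay at 63.4 to 92.6 FPKM and the knockdown libraries at 104.3 to 141 FPKM.

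The remaining rows of Snhg1 were weaker or mixed. SNORD28 ran from 189 to 789.7 FPKM in knockdown libraries and from 0 to 385 FPKM in control libraries, and 5 of the 6 knockdown libraries lay above the highest control library. It was not called (limma adjusted p = 0.171), though it passed at 0.0472 without control library 4, which is listed at 0. Snord22 averaged 323 ± 107 FPKM in knockdown and 223 ± 42.3 FPKM in control libraries (SD, n = 6 each; limma adjusted p = 0.0803), and it passed at 0.0279 without knockdown library 5. SNORD30 had its higher mean in control libraries, with 375 ± 232 FPKM in knockdown and 458 ± 257 FPKM in control libraries (limma adjusted p = 0.576). SNORD27 had 449, 178, 83.2, 0, 0 and 356 FPKM in knockdown libraries 1 to 6, and 95.9, 0, 218, 99.6, 94.3 and 98.2 FPKM in control libraries 1 to 6. Its log2 fold change was −0.51 (limma adjusted p = 0.852), and 0.53 without knockdown library 4 or without knockdown library 5, which are listed at 0. Over the 13 rows, the groups did not overlap in 3 (SNORD26, SNORD31 and the Snora24 row XLOC_022176), where 18.7% of all snoRNA-named rows and 5.51% of all rows tested had knockdown libraries wholly above control libraries.

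SNORD31 had 603, 448, 279, 1022, 1241 and 299 FPKM in knockdown libraries 1 to 6, and 0.417, 1.42, 1.89, 0.866, 0.820 and 0 FPKM in control libraries 1 to 6. The values differ by orders of magnitude, and the log2 fold change of 8.27 (limma adjusted p = 1.96e-08) was the largest among the snoRNA-named rows at these loci. The authors' deposited table does not show this, since it gives SNORD31 652 and 352 FPKM for the knockdown and the control group and a log2 fold change of 0.89. The low values themselves show how the 2 scales part. In many snoRNA-named rows the values, corrected for the relative depth of each library, are whole multiples of a smallest step within a tolerance of 0.05 of a step, as they are where few whole fragments were counted. In SNORD31 the step was 161 FPKM in knockdown and 0.417 FPKM in control libraries, so that 25 steps in knockdown and 12 steps in control libraries, over 6 libraries each, gave those values. Counted in steps the libraries held 4, 3, 2, 6, 8 and 2 in the knockdown and 1, 3, 4, 2, 2 and 0 in the control group, and these overlap.

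Of 22 single-named snoRNA rows at the loci of all the hosts, 12 had the same step in both groups, 2 had a different step in each group and in 8 no step was found in at least 1 group. SNORA32 at Taf1d was the other row of a different step, with 16.1 FPKM per step in knockdown and 0.279 FPKM per step in control libraries. Its 23 and 11 steps in knockdown and control libraries gave a log2 fold change of 4.92, where the authors' deposited table gives 0.88. In the whole table, 135 of 1209 snoRNA-named rows had a step in both groups, and in 29 of those (21.5%) it differed by more than 2%. Without SNORD31, 6 of the remaining 12 snoRNA rows at the noncoding hosts were called, an alternative chosen after the data were seen.

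**Figure D2:**
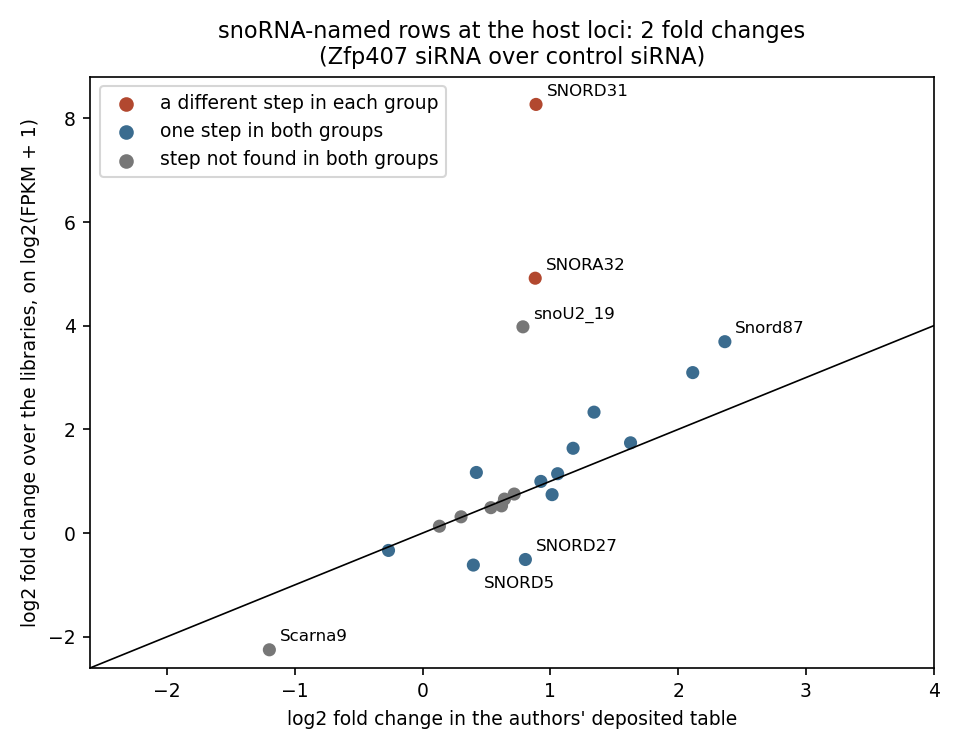
Log2 fold change of each single-named snoRNA row at the host loci over the 12 libraries (vertical) against that in the authors' deposited table (horizontal), knockdown over control, with a line at equal values. SNORD31 and SNORA32, which have a different step in each group, stand far above the line at 8.27 and 4.92.

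Counted in steps, most of the 14 rows with a step in both groups held a handful of units per library. The search allowed at most 40 steps per library, so rows of more units could not be resolved. The counts below cover the resolved rows only. A step was worth 4.31 to 206 FPKM in the rows with a common step, and no library held more than 14 steps of any resolved row. The 14 rows with a step in both groups summed to 75, 52, 77, 58, 64 and 80 steps in knockdown libraries 1 to 6, and to 40, 31, 33, 20, 20 and 29 steps in control libraries 1 to 6. Every knockdown library held more than every control library, with totals of 406 and 173 steps. The relative depth of the libraries, taken from low rows, was 0.945 to 1.15 in knockdown and 0.880 to 1.017 in control libraries, with means of 1.06 and 0.953. The steps are not scaled to depth, and the part of depth in their difference was not tested. The knockdown group held more steps in 13 of the 14 rows, and SNORD30 held 19 in knockdown and 20 in control libraries. Steps were not summed over snoRNA-named rows elsewhere in the table. Of all 214 snoRNA-named rows tested, 44.9% were called higher, so the excess of steps is not shown to be particular to these hosts. A step may itself be several fragments, so these counts are a reading of the values and not a count of reads, and rows at the loci of the 3 coding hosts, chosen for their rise, enter the sum.

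**Figure D3:**
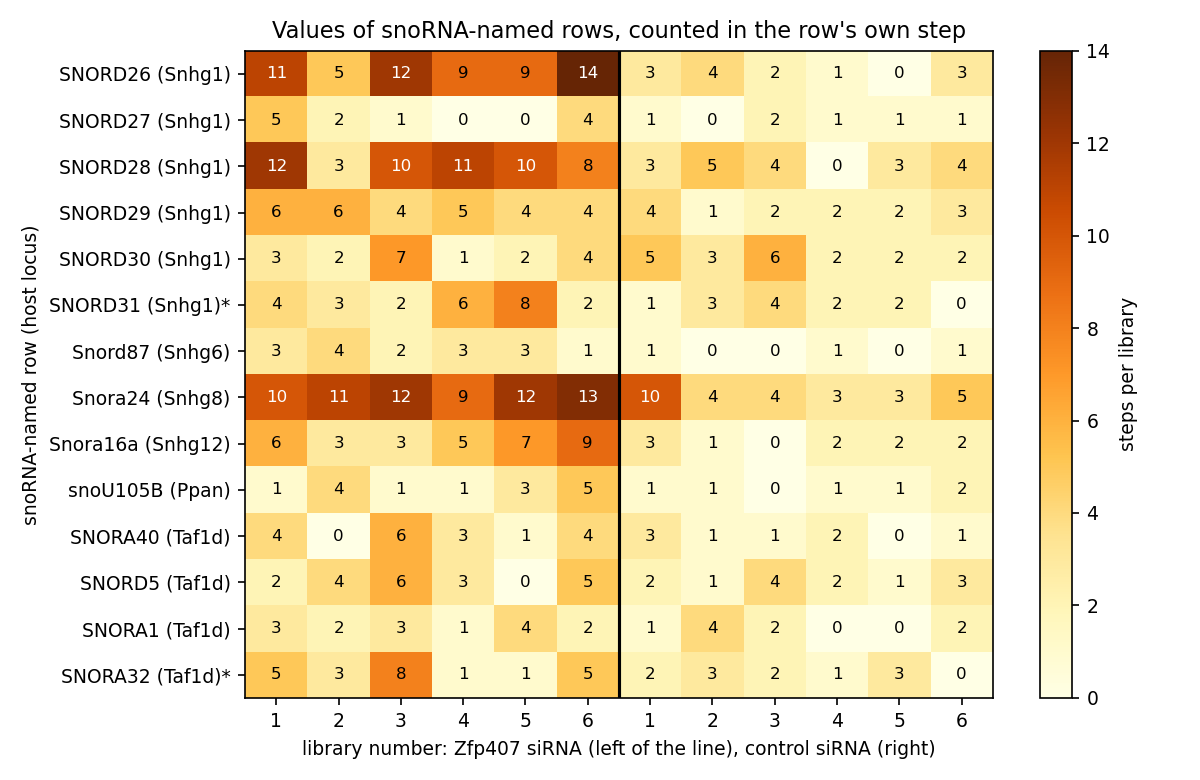
Values of the 14 resolved snoRNA-named rows (down the page, host locus in brackets), as whole steps in knockdown libraries 1 to 6 (left of the line) and control libraries 1 to 6 (right), with darker cells for more steps. SNORD26 and Snora24 reach 14 and 13 steps in knockdown library 6, the rows marked with an asterisk have a different step in each group, and totals are 406 in knockdown and 173 in control libraries.

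At the loci of the coding hosts the snoRNA-named rows are given without a test. At Ppan, snoU105B had 47.0, 185.9, 43.5, 53.0, 145 and 233 FPKM in knockdown libraries 1 to 6, and 50.1, 56.9, 0, 52.1, 49.3 and 103 FPKM in control libraries 1 to 6. In steps these are 15 in knockdown and 6 in control libraries, and knockdown libraries 1, 3 and 4 lie within the control range, where Ppan itself did not overlap. At Taf1d, SNORA40 held 18 and 8 steps, SNORD5 20 and 13 and SNORA1 15 and 9 in knockdown and control libraries. SNORD5 ran from 0 to 549 FPKM in knockdown and from 104 to 479.5 FPKM in control libraries, and with knockdown library 5 listed at 0 its log2 fold change was −0.62. SNORA8 averaged 41.3 ± 19.2 FPKM in knockdown and 27.1 ± 8.27 FPKM in control libraries, and SNORA25 averaged 11.6 ± 4.45 and 7.09 ± 3.99 FPKM in knockdown and control libraries (SD, n = 6 each).

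Other snoRNA-named rows at the locus of Taf1d could not be read as levels, and they were not shown to lie within Taf1d. Scarna9, an RNA of the Cajal body, is listed at 0 in knockdown libraries 2 to 6 and at 0.374 FPKM in knockdown library 1, while control libraries 3 and 6 stood at 132 and 119 FPKM and the other 4 control libraries at 0. The authors' deposited table gives Scarna9 18.2 FPKM for the knockdown group. The row snoU2_19 had 63.6, 62.9, 0, 144, 0 and 63.0 FPKM in knockdown libraries 1 to 6 and at most 0.834 FPKM in control libraries, where the authors' deposited table gives 30.7 FPKM for the control group. Of 28 rows compared (the 3 coding hosts, the rows that carry Gas5 and Snhg12, and 23 snoRNA-named rows), 6 had an authors' group value more than 1.5 times above or below the mean of the libraries in at least 1 group, and none of the 6 was Ppan, Taf1d or Sec24a.

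Other coding snoRNA hosts had a median fold change close to that of coding genes, while a smaller share of them fell. GENCODE M21 holds 275 other protein-coding genes with a snoRNA inside them on the same strand, of which 223 had a row of their own and 189 passed the filter on low values. Of these 189, 23 (12.2%) rose and 38 (20.1%) fell, beside 9.22% and 28.9% of the 9558 protein-coding rows. The median log2 fold change of the 189 was −0.03, beside −0.07 over protein-coding rows. With each library centred on its median, 33 hosts (17.5%) rose and 33 (17.5%) fell, beside 13.3% and 25.0% of protein-coding rows. With quantile normalization, 26 (13.8%) rose and 35 (18.5%) fell, beside 12.6% and 25.4%. Whether the shares of hosts and of coding genes differ was not tested. Without control library 3, and likewise without knockdown library 1, 15 rose. Against a minimum fold of 1.2, 1 rose and 4 fell. None of the 189 had a log2 fold change of 0.8 or more, a size that 34 of 9366 other protein-coding rows had (0.363%). The 3 hosts above that size, Ppan, Taf1d and Sec24a, were chosen for their rise and left out of both sets. These shares therefore do not compare all hosts with other genes.

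**Figure D4:**
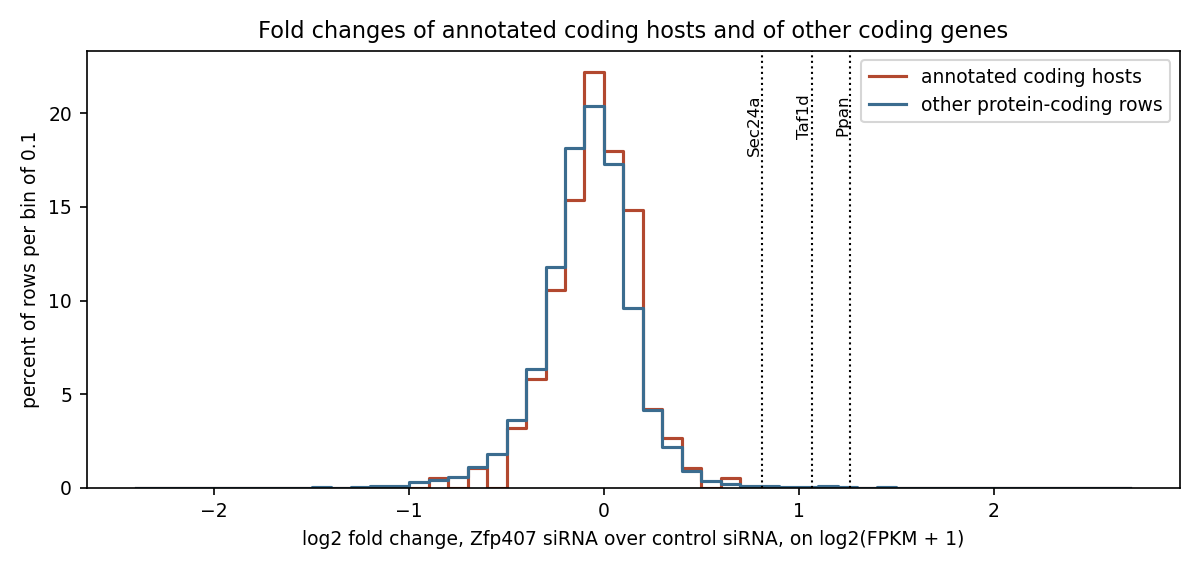
Distribution of log2 fold changes, knockdown over control, for 189 annotated coding snoRNA hosts and for 9366 other protein-coding rows, as the percent of rows per bin of 0.1, with dotted lines at Sec24a (0.81), Taf1d (1.07) and Ppan (1.26). The 2 distributions overlap almost wholly. The 3 hosts chosen for their rise are left out of the 189. They stand to the right of all 189 hosts, but within the upper tail of the other protein-coding rows, which reaches 2.68.

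Among the hosts called higher, the largest rise was that of Tbrg4, which encodes a mitochondrial RNA-binding protein, at 81.2 ± 12.7 FPKM in knockdown and 49.8 ± 8.96 FPKM in control libraries (SD, n = 6 each; log2 fold change 0.70, limma adjusted p = 0.000921), without overlap. Top2a, DNA topoisomerase II alpha, followed at 0.44 (limma adjusted p = 0.0475). Among the hosts called lower, the largest fall was that of Tnpo2, a nuclear import receptor, at 18.2 ± 0.802 FPKM in knockdown and 28.8 ± 0.690 FPKM in control libraries (SD, n = 6 each; log2 fold change −0.63, limma adjusted p = 5.72e-08). Dpep2 had a lower log2 fold change than Tnpo2, −0.88, but was not called (limma adjusted p = 0.102). Med24, a subunit of Mediator, had a log2 fold change of −0.61 with wide spread (limma adjusted p = 0.046). Among 166 annotated hosts with a snoRNA-named row at the locus, 12.7% rose and 21.1% fell, and among the 23 without such a row 2 rose and 3 fell.

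Within the shorter lists, 22 of 25 ribosomal protein genes known as hosts were tested, and 3 (13.6%) rose and 0 fell. Of all protein-coding rows tested, 9.22% were called higher and 28.9% lower. Rpl12 averaged 1048 ± 109 FPKM in knockdown and 816 ± 108 FPKM in control libraries (log2 fold change 0.37, limma adjusted p = 0.0114), and Rpsa averaged 453 ± 10.3 and 374 ± 19.0 FPKM in knockdown and control libraries (0.27, limma adjusted p = 0.000263; SD, n = 6 each). Rpl23a was the third, and the median of the 22 was 0.11. Ribosomal protein genes have many near-identical processed copies in the genome, between which reads may be split, so these values are uncertain. None of the 3 passed the test against a minimum fold of 1.2. Of 30 other coding hosts, 29 were tested, and 7 (24.1%) rose and 1 (3.45%) fell. The rises were led by Tbrg4 and by the splicing factor Sf3b3 (0.40, limma adjusted p = 0.000513), and the fall was that of Tnpo2. Whether the shares of these lists differ from those of protein-coding rows was not tested. Of 14 further noncoding hosts only Snhg9 and Snhg11 had a row, and neither passed the filter on low values.

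Genes of proteins that build and release snoRNA particles had small fold changes. Of 21 tested, 7 (33.3%) rose and 2 (9.52%) fell, beside 9.22% and 28.9% of protein-coding rows, a difference that was not tested. None of them was called against a minimum fold of 1.2, and the median was 0.11 on the log2 scale. Nhp2l1, which encodes a core protein of box C/D particles, averaged 93.4 ± 5.86 FPKM in knockdown and 78.8 ± 7.52 FPKM in control libraries (SD, n = 6 each; log2 fold change 0.24, limma adjusted p = 0.011). Naf1, an assembly factor of box H/ACA particles, had a log2 fold change of 0.21 (limma adjusted p = 0.00528). The falls were those of Pih1d1 (−0.31, limma adjusted p = 0.0182) and Rpap3 (−0.25, limma adjusted p = 0.00149), subunits of the complex that helps to assemble box C/D particles. Fbl, the methyltransferase of box C/D particles, and Dkc1, the pseudouridine synthase of box H/ACA particles, were not called.

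Of 13 nonsense-mediated decay factors, 10 were tested, and 1 rose and 3 fell. Nbas, which acts in decay at the endoplasmic reticulum, averaged 2.44 ± 0.205 FPKM in knockdown and 5.66 ± 0.407 FPKM in control libraries (SD, n = 6 each), without overlap (log2 fold change −0.95, limma adjusted p = 1.01e-07). Smg6, the endonuclease of the pathway, whose locus holds 14 rows, averaged 10.3 ± 0.947 FPKM in knockdown and 15.5 ± 0.802 FPKM in control libraries (SD, n = 6 each; log2 fold change −0.54, limma adjusted p = 2.25e-05). Upf3b had a log2 fold change of −0.30 (limma adjusted p = 0.000652). Smg5 rose (0.19, limma adjusted p = 0.000205), while Upf1, the helicase at the centre of the pathway, and Upf2 were not called. The lists here were chosen with earlier results of these data known, and their counts are descriptions beside the 11.6% of rows called higher and 24.8% called lower.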

How the data were processed

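RNA from 12 libraries of 3T3-L1 adipocytes was sequenced, 6 with Zfp407 siRNA and 6 with control siRNA. The deposited table holds FPKM values per library, made by the authors; depth in reads is unknown, and the relative depth was taken from low rows (mean FPKM under 0.5). Per the file headers, the same table gives the authors' group FPKM, log2 fold change, p-value and q-value, and a test statistic, a score that was not used. Cufflinks 2.0.2, TopHat2 2.0.5, SAMtools 0.1.18.0 and Bowtie2 2.0.0.7 are listed in the submitters' processing notes. The sources used here give no genome build; 99.5% of 18513 rows overlapped the same gene of GENCODE M21, so positions are given on GRCm38, with starts raised by 1. Nor do they say whether counting used strand.

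The test was limma 3.58.1 (R 4.3.3, with trend, two-sided) on log2(FPKM + 1) over 14706 rows with a mean of at least 1 FPKM, with Benjamini-Hochberg adjustment at 0.05. The fit was tested on simulated data. Fold changes on this scale understate the change of low rows. Where a library is listed at 0 beside high values, they can lie far from the change of the means. Alternatives were a pseudocount of 0.1, a filter at 5 FPKM or none, median centring, quantile normalization, a minimum fold of 1.2 and leaving out each library. No 2 libraries of a group held the same values. Steps were sought up to 40 per library in rows with at least 3 values above 0.

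The members and lists were chosen with earlier results of these data known. The search for steps, its tolerance (0.03 at a first look at these loci, then 0.05), the annotated hosts, the window of 10 to 60 FPKM and the alternative without rows of a different step were set after the table was opened, and the partner lists of the coding hosts after it arrived and before their values were read. Named were the hosts, every snoRNA row at their loci, in each list up to 2 genes with the largest rise and up to 2 with the largest fall among those called, and Zfp407; further list members were named after their values were seen. The planned rule for genes of like pattern used the mean of the noncoding hosts, which have no row of their own, and the 3 most correlated rows of each coding host replace it. Summing rows of the same host changed nothing, since each coding host has 1 row.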

Additional observations from a re-analysis of the deposited data

Results flagged for a closer look

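Of 56 sets of 6 libraries (28 rows in both groups), 4 held a library far from the others of its group. Chance flags about 1 in 20 sets of normally distributed values. Some of these sets hold values at 0, and a set with only 1 value above 0 is always flagged. That rate therefore need not hold here. The row that carries Snhg12 stood at 402.6 FPKM in control library 3, against 52.6 to 71.0 FPKM in the other control libraries. The row named SNORD25 and Snord22, at Snhg1, stood at 559.6 FPKM in control library 5, against 63.4 to 92.6 FPKM in the others. The Snora24 row XLOC_022177, at Snhg8, stood at 51.7 FPKM in control library 1, against 15.3 to 26.5 FPKM in the others. Scarna9, at the wide locus of the Taf1d row, stood at 0.374 FPKM in knockdown library 1 and at 0 in the other knockdown libraries.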

How the results depend on the processing

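No paired analysis was possible because the knockdown columns carry numbers that match no label. With any single library left out, between 4786 and 5525 rows were called over the table, 0 to 1 of the rows that carry Gas5 and Snhg12, 6 to 8 of the 13 snoRNA rows at the noncoding hosts and 20 to 27 genes of the lists of other hosts, snoRNA particle proteins and decay factors (23 with all libraries, each gene counted once). Among annotated coding hosts 15 to 22 rose and 35 to 42 fell. The log2 fold change lay between 1.22 and 1.31 for Ppan, 0.91 and 1.29 for Taf1d and 0.67 and 0.92 for Sec24a, and the difference of Snora16a from the row that carries Snhg12 lay between 0.30 and 1.67. Against a minimum fold of 1.2, 856 of 5360 rows, 2 of 7 snoRNA rows and 4 of 23 list genes were called, with 1 annotated host higher and 4 lower. SNORD27 lay between −1.65 and 0.53, changing sign without knockdown library 4 and without knockdown library 5. Pseudocount, filters, median centring and quantile normalization moved none of these counts by more than 1.5 times. Of all calls, 68.1% were lower, and 57.7% with median centring; among annotated coding hosts 62.3% were lower, and with median centring 33 were higher and 33 lower. Resolved snoRNA rows held 0 to 14 steps per library, which limits their precision.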
